A study of Homo sapiens with 4 samples.

Results

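Enzymes that write or remove methyl groups on histones, together with ATP-dependent chromatin remodelers, histone acetyltransferases and enzymes of DNA methylation, were followed in RNA sequencing of a human cell line with and without knockdown of FYB1. The set holds 46 genes, chosen by symbol with GENCODE 29, and all 46 were present among the 28274 genes of the deposited table. All 46 also had a mean of at least 1 FPKM over the 4 libraries, the level required for testing, as did 13172 genes in all. FPKM are reads or fragments per kilobase of exon, here scaled by a size per library.

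Histone methyltransferases of the KMT2 and SETD1 families mark promoters and enhancers of active genes, and the NSD enzymes, SETD2 and DOT1L mark transcribed gene bodies. Polycomb repressive complex 2 (PRC2) and the H3K9 methyltransferases mark silent chromatin, and demethylases remove these marks. CHD and SWI/SNF proteins use ATP to move or evict nucleosomes, and several of the genes, among them PHF6, EZH2, SUZ12, EED, KMT2D, CREBBP and DNMT3A, are known to be recurrently mutated in leukemias or lymphomas.

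The line is called J-gammal in the labels, which give no tissue of origin. The 2 control libraries are described as cells with no treatment and genotype none, with NC in their titles, and the 2 knockdown libraries as FYB1 knockdown, with sh-FYB1 in their titles. The labels give neither the construct nor whether the controls carried one. They do not state that replicate libraries derive from independent cultures, so p-values here reflect a spread that could be purely technical. FYB1, the adaptor protein gene that the knockdown targets, measured 17.6 FPKM in control 1, 20.1 in control 2, 6.18 in knockdown library 1 and 4.53 in knockdown library 2. Of 10 T cell markers, 10 had a mean of at least 1 FPKM, with a summed level of 1116 to 1512 FPKM per library that was lowest in knockdown library 1. Of the other cell types' markers, 14 had values, and CD79A and PECAM1 alone reached 1 FPKM. The summed level of the 14 was 33.1 to 37.3 FPKM in controls against 20.5 to 25.8 FPKM after knockdown, and 7 of the 14 had a lower mean. CD79A had 24.5 and 21.2 FPKM in controls 1 and 2 against 11.1 and 15.8 in knockdown libraries 1 and 2. PECAM1 had 11.1 and 10.6 against 7.59 and 8.03 FPKM. The part of either summed shift in the results was not tested. The libraries held 16693113 to 20251864 recovered reads.

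The 46 genes were mostly somewhat higher in the knockdown libraries. On the log2(FPKM + 1) scale, which understates changes of low genes, 35 had a higher mean (45.7% of all tested genes did) and 11 a lower mean, and the median log2 fold change (knockdown minus control) was 0.18, against -0.03 over all tested genes. Both knockdown libraries lay above both controls for 30 of the 46 genes (26.0% of all tested genes) and below both for 6 (34.6% of all tested genes), and the groups overlapped for 10. In bulk RNA, fewer cells of a type and less RNA per cell cannot be told apart.

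Few of these differences passed a test. Limma-trend, a linear model on log2(FPKM + 1) with p-values adjusted by the Benjamini-Hochberg method over all 13172 genes, called 0 of the 46 at an adjusted p of 0.05, with 0.205% of all genes called. At an unadjusted p of 0.05 it had 8 of the 46 higher (8.51% of all genes) and 0 lower (14.9% of all genes). Limma-voom on the reads recovered from the FPKM values, which weights each gene by its depth, called 3 of the 46, all higher (1.94% of all genes were called higher), and 0 lower (5.8% of all genes). The 3 were KMT2C, KMT2D and KDM6B. Over all genes limma-voom called 255 higher and 764 lower with the authors' library totals. Those totals match size factors (the median over genes of a library's ratio to the geometric mean of the gene), not summed reads. The counts were 214 and 299 after quantile normalization, and 254 and 207 when each library was scaled by its summed reads. The split of all calls therefore depends on the scaling.

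**Figure D1:**
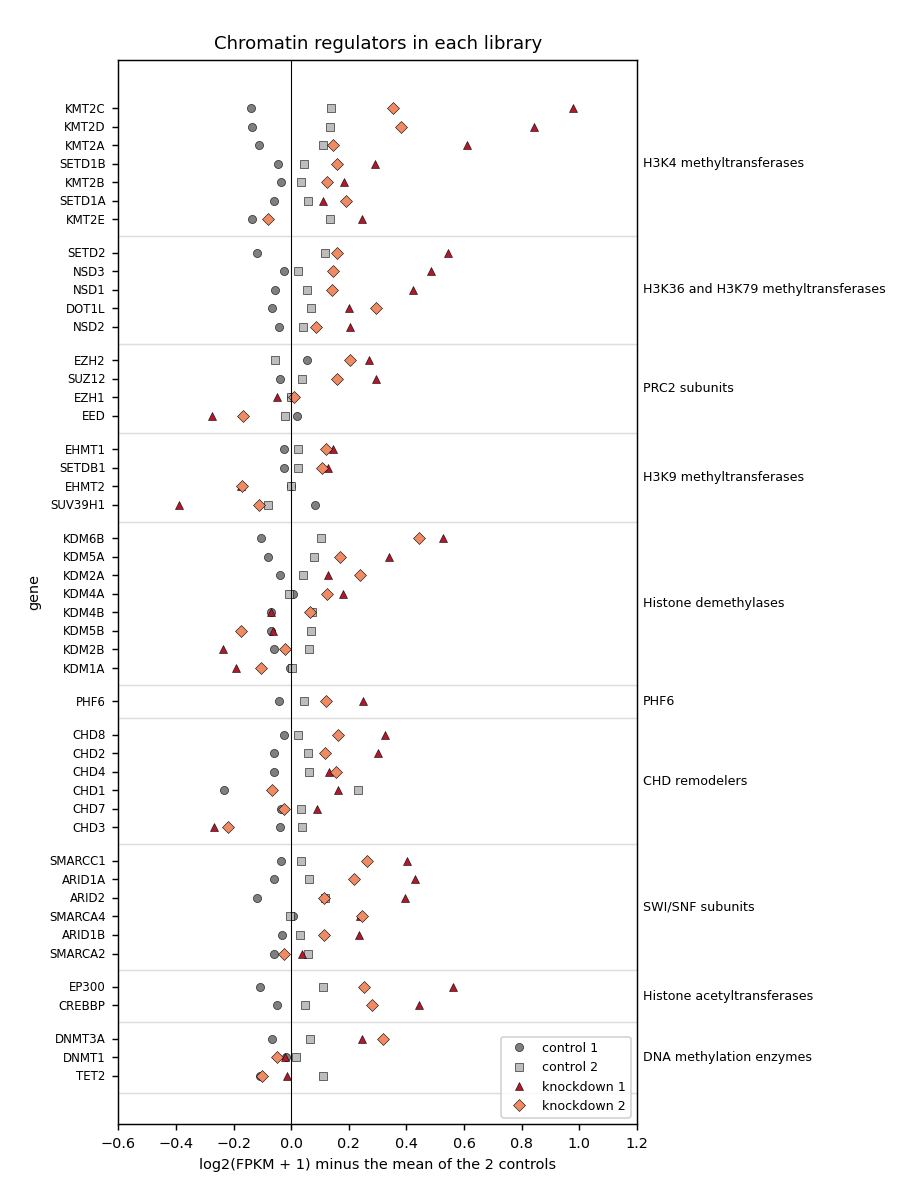
Each row is 1 gene, grouped by role, and each symbol is 1 library; the x axis is log2(FPKM + 1) minus the mean of the 2 controls. KMT2C and KMT2D in knockdown library 1 lie farthest to the right, at 0.98 and 0.84, and control 1 and knockdown library 1 hold the lowest and highest values for most of the methyltransferases of active chromatin.

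The H3K4 methyltransferases included the genes with the largest fold changes of the 46, KMT2C and KMT2D. All 7 had a higher mean in the knockdown libraries (45.7% of all tested genes), with a median log2 fold change of 0.23. For 6 of them both knockdown libraries lay above both controls (26.0% of all tested genes). Limma-voom called 2 higher, KMT2C and KMT2D (1.94% of all tested genes). Both have over 20000 bases of exon. In that range 84.1% of all tested genes had a higher mean, and limma-voom called 19.5% higher. KMT2C, a methyltransferase of enhancers (chromosome 7, 152134922 to 152436005, minus strand, hg38), measured 3.66 FPKM in control 1, 4.65 in control 2, 9.10 in knockdown library 1 and 5.55 in knockdown library 2. These values rested on 1225, 1571, 3373 and 2287 reads. Knockdown library 1 was far above the other 3, and knockdown library 2 was closer to control 2 than to knockdown library 1. KMT2C rose 1.76 times (limma-voom log2 fold change 0.78 ± 0.20 (SE), adjusted p = 0.0415; limma-trend 0.66 ± 0.22, adjusted p = 0.17). Its paralog KMT2D (chromosome 12, 49018975 to 49059774, minus strand, hg38) measured 9.995 FPKM in control 1, 12.2 in control 2, 20.7 in knockdown library 1 and 14.7 in knockdown library 2, again with knockdown library 1 highest. KMT2D rose 1.59 times (limma-voom log2 fold change 0.66 ± 0.17, adjusted p = 0.0396; limma-trend 0.61 ± 0.18, adjusted p = 0.155).

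The other H3K4 enzymes did not pass either test. KMT2A, which is rearranged in acute leukemias, had 3.65 and 4.42 FPKM in the control pair against 6.67 and 4.55 FPKM, so knockdown library 2 lay just above control 2. KMT2B, SETD1A and SETD1B, catalytic subunits of related complexes, had ratios of 1.12, 1.12 and 1.19 between the group means, with no overlap. KMT2E, a family member not known as an active methyltransferase, had 10.2 and 12.5 FPKM in the control pair and 13.6 and 10.6 FPKM in the knockdown pair (library 1 first, here and in all later pairs), and its groups overlapped.

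Among the 8 demethylases 4 had a higher (45.7% of all tested genes) and 4 a lower mean. Limma-voom called 1 higher (1.94% of all tested genes) and 0 lower (5.8% of all tested genes). Of the 4 lower means, those of KDM4B and KDM1A were higher after quantile normalization, and those of KDM4B and KDM5B when scaled by summed reads. KDM6B, a demethylase of the Polycomb mark also called JMJD3 (chromosome 17, 7839904 to 7854796, plus strand, hg38), measured 28.9 and 33.6 FPKM in the control pair and 45.3 and 42.8 FPKM in the knockdown pair. Its knockdown libraries were close to each other and both above the controls. KDM6B rose 1.41 times (limma-voom log2 fold change 0.50 ± 0.13, adjusted p = 0.042; limma-trend 0.49 ± 0.12, adjusted p = 0.135). KDM1A, the H3K4 demethylase LSD1 and the most abundant gene of the set, measured 55.1 and 55.4 FPKM in the control pair against 48.2 and 51.3 FPKM. Its knockdown libraries were both below the controls (34.6% of all tested genes), with a log2 fold change of -0.15 ± 0.11 and an adjusted p of 0.435 by limma-trend.

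The remaining demethylases are lysine-specific enzymes of the JmjC type. KDM5A, KDM2A and KDM4A had ratios of the group means of 1.21, 1.14 and 1.12 without overlap (26.0% of all tested genes were above without overlap). KDM4B, KDM5B and KDM2B had ratios of 0.998, 0.913 and 0.909 with overlap. None of these 6 passed limma-trend or limma-voom.

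The 3 calls depended on single libraries. Leaving out a library leaves its group with 1, which is assumed to vary like the other group. Without control 1 limma-voom called 0 of the 46 (adjusted p = 0.212 for KMT2C, 0.39 for KMT2D and 0.567 for KDM6B), and without knockdown library 1 again 0 (adjusted p = 0.163, 0.159 and 0.105 in the same order). The log2 fold changes without knockdown library 1 were 0.43, 0.41 and 0.46, so that of KDM6B stayed close to its 0.50. Knockdown library 1 alone lay 0.98, 0.84 and 0.53 above the control mean on the log2(FPKM + 1) scale, in the same order. Without knockdown library 2 limma-voom called more of all tested genes, not only of the 46, so its calls are not counted here. Without control 2 it called KMT2C and KMT2D, and the adjusted p of KDM6B was 0.132. Scaled by summed reads, KDM6B was called (adjusted p = 0.0361), and KMT2C and KMT2D were not (adjusted p = 0.0648 and 0.0548). After quantile normalization limma-voom called KDM6B (adjusted p = 0.0309) and SMARCA4 (adjusted p = 0.0489), and not KMT2C or KMT2D (adjusted p = 0.0658 and 0.052). Among genes averaging 5 FPKM or more KMT2C was not called (adjusted p = 0.0517).

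**Figure D2:**
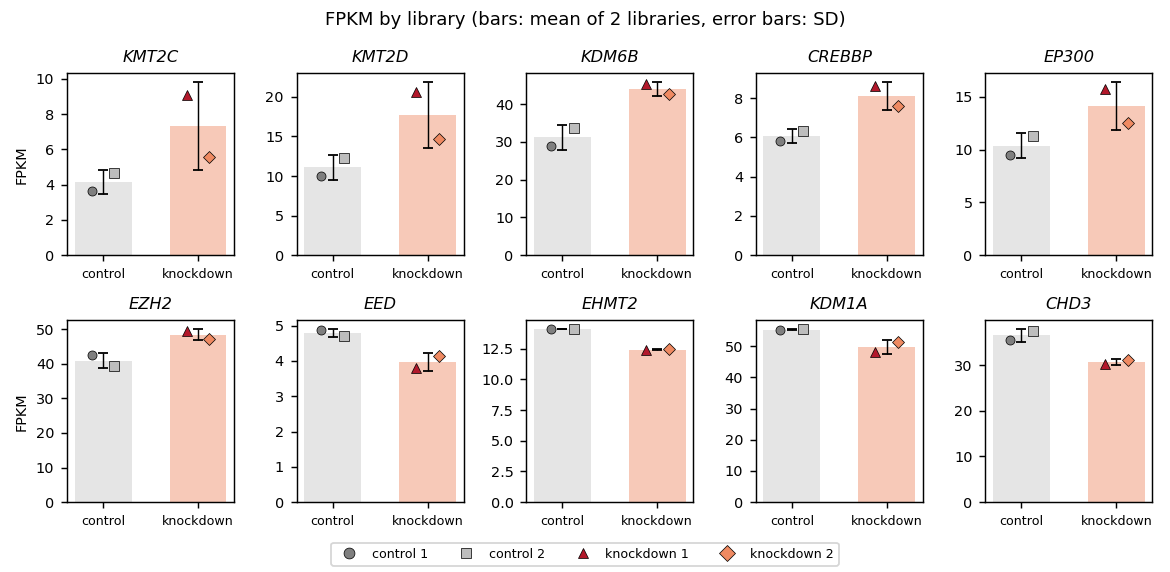
FPKM (y axis, from 0) of 10 genes in each library, with bars for the mean of the 2 libraries of a group and error bars for the SD. For KMT2C, KMT2D and EP300 the knockdown libraries stand well apart from each other, while for KDM6B and EHMT2 libraries of the knockdown group lie close together.

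The bases just before the annotated starts of the 3 genes are shown because limma-voom called these genes. They come from RefSeq (GRCh38.p14), in which 39 of the 46 symbols had an entry, and each line gives 250 bases upstream of a start, read 5′ to 3′ on the strand of the gene. Capitals mark the motifs searched on both strands, which were the GC box GGGCGG, the CCAAT box CCAAT, the E-box CACGTG, the TATA box TATAAA and the cyclic AMP response element TGACGTCA. Neighbouring GC boxes can overlap. The RefSeq start of KMT2D and the upstream start of KDM6B lie outside the gene intervals given above. KMT2C lies at chr7:152436004-152436253 (minus strand), KMT2D at chr12:49060795-49061044 (minus strand) and the starts of KDM6B at chr17:7833967-7834216 and chr17:7839667-7839916 (plus strand).
KMT2C: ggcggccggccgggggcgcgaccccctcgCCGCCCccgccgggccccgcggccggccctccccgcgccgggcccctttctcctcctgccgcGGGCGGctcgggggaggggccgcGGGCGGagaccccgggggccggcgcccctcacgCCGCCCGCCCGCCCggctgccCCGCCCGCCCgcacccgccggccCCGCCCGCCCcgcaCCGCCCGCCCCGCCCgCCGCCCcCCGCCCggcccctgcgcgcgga
KMT2D: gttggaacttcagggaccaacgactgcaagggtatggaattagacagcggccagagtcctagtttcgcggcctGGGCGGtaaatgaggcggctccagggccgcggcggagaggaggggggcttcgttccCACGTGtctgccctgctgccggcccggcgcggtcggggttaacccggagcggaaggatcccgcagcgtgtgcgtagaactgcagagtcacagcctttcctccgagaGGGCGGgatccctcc
KDM6B, upstream start: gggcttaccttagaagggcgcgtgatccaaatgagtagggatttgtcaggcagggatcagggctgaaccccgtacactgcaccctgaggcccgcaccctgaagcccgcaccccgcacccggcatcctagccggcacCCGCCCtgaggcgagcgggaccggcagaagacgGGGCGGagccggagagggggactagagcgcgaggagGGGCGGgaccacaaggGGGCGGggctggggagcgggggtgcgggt
KDM6B, downstream start: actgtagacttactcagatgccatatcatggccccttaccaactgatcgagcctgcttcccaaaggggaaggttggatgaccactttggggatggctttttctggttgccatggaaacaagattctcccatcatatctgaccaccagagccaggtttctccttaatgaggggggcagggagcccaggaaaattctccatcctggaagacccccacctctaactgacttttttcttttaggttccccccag

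In these windows KMT2C held 15 GC boxes and no other motif, KMT2D 2 GC boxes and 1 E-box, and KDM6B 4 GC boxes before its upstream start and 0 motifs before the downstream one. GC boxes were in 68.3% of the 63 windows of the 39 genes and in 42.6% of all 35116 windows, the E-box in 14.3% and 6.34%, the CCAAT box in 23.8% and 32.0%, and the TATA box in 1.59% and 10.7%. The cyclic AMP response element was in 0 of the 63 windows (1.65% of all windows). The windows of these genes were rich in G and C, with a median of 70.4% against 58% over all windows, and 92% for KMT2C. These matches describe letters in a window and say nothing of binding.

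Methyltransferases of transcribed gene bodies were higher in both knockdown libraries for 5 of 5 genes (26.0% of all tested genes), although NSD2 turned lower after a correction for exon length, and 0 passed limma-trend or limma-voom. These genes have 10099 to 19776 bases of exon, and of all tested genes with 10000 to 15000 and 15000 to 20000 bases 73.4% and 83.9% had a higher mean. SETD2, which trimethylates H3K36, measured 9.38 and 11.2 FPKM in the control pair against 15.4 and 11.6 FPKM, with knockdown library 2 just above control 2. NSD2, which dimethylates the same residue and was the most abundant of the 5, stood at 18.5 and 19.7 FPKM against 22.1 and 20.3 FPKM. NSD1, NSD3 and DOT1L, the H3K79 methyltransferase, had ratios of the group means of 1.26, 1.28 and 1.21.

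The PRC2 subunits did not move together. EZH2, the catalytic subunit of dividing cells, measured 42.5 and 39.3 FPKM in the control pair against 49.6 and 47.2 FPKM (log2 fold change 0.24 ± 0.11, adjusted p = 0.26 by limma-trend). SUZ12, a scaffold subunit, had a ratio of 1.19 between the group means without overlap (26.0% of all tested genes were above without overlap). EED, the subunit that reads the mark, measured 4.87 and 4.70 FPKM in the control pair against 3.79 and 4.15 FPKM. Its log2 fold change was -0.22 ± 0.10 (adjusted p = 0.239 by limma-trend), with no overlap (34.6% of all tested genes were below without overlap). EZH1, the other catalytic subunit, had values of 8.31 and 8.30 FPKM against 8.002 and 8.38 FPKM, and its groups overlapped.

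The H3K9 methyltransferases were divided as well. EHMT2, also called G9a, stood at 14.1 FPKM in each control and 12.4 FPKM in each knockdown library, and SUV39H1, a heterochromatin enzyme, at 8.77 and 7.73 FPKM against 6.06 and 7.54 FPKM. Both were lower without overlap (34.6% of all tested genes), and limma-trend gave adjusted p-values of 0.297 and 0.287. The limma-trend log2 fold change of EHMT2 was -0.17, -0.082 after quantile normalization and -0.043 scaled by summed reads. That of SUV39H1 was -0.25, -0.23 and -0.13 in the same order. EHMT1, the partner of EHMT2, and SETDB1, an enzyme that silences repeats, had ratios of 1.12 and 1.10. Both were higher without overlap (26.0% of all tested genes), and EHMT1 turned lower after a correction for exon length (-0.094).

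Of the 6 CHD remodelers 5 had a higher mean, CHD7 turning lower after quantile normalization and CHD1 and CHD7 after a correction for exon length, and 0 passed either test. CHD3, an ATPase of the NuRD complex, was the exception, with 35.5 and 37.5 FPKM in the control pair against 30.2 and 31.2 FPKM (log2 fold change -0.24 ± 0.11, adjusted p = 0.232 by limma-trend). Its log2 fold change was -0.015 after quantile normalization and -0.11 scaled by summed reads. CHD8 and CHD2 had ratios of 1.21 and 1.18 without overlap (26.0% of all tested genes were above without overlap), and the groups overlapped for CHD1 and CHD7. CHD4, the other NuRD ATPase, measured 2.95 and 3.30 FPKM in the control pair against 3.51 and 3.59 FPKM. Its level is uncertain, because 53.5% of its exonic bases are shared with other annotated genes, mostly AC006064.6 on the same strand, and the sources used here do not say how the authors assigned such reads. The same limit holds for KDM4A, with 48.5% shared, and in smaller part for KMT2A (18.9%), both mostly on the same strand. SUV39H1 shares 20.3%, only with AC231533.1 on the opposite strand (at most 0.13 FPKM). SETDB1 shares 13.4% with CERS2 on the opposite strand (21.6 to 25.2 FPKM). DOT1L shares 11.5%, in part with PLEKHJ1 on the opposite strand (16.4 to 25.0 FPKM). The strand setting is unstated.

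All 6 SWI/SNF genes had a higher mean (45.7% of all tested genes), 4 lay above both controls in both knockdown libraries (26.0% of all tested genes), and 0 passed either test with the authors' library totals, but ARID1B and SMARCA2 had lower means after the exon length correction. SMARCC1, a core scaffold and the most abundant of them, measured 26.1 and 27.4 FPKM in the control pair against 35.6 and 32.2 FPKM (limma-voom log2 fold change 0.34 ± 0.12, adjusted p = 0.0989). These genes are long too, with a median of 15853 bases of exon, and 83.9% of all tested genes with 15000 to 20000 bases had a higher mean. The ATPase SMARCA4 was the most even, with 21.9 and 21.7 FPKM against 25.9 and 26.0 FPKM, and limma-voom called it after quantile normalization alone among the settings with all 4 libraries (adjusted p = 0.0489, against 0.212). ARID1A, a DNA-binding subunit, had a ratio of 1.27 and ARID1B, its alternative, one of 1.19, while the groups overlapped for ARID2 and for SMARCA2, the ATPase that alternates with SMARCA4.

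The acetyltransferases CREBBP and EP300, paralogs that acetylate histones at enhancers, were both higher without overlap (26.0% of all tested genes). They have 15492 and 12500 bases of exon. Of all tested genes with 10000 to 15000 and 15000 to 20000 bases, 73.4% and 83.9% had a higher mean. EP300 measured 9.52 and 11.2 FPKM in the control pair against 15.7 and 12.5 FPKM, and CREBBP measured 5.84 and 6.33 FPKM against 8.62 and 7.61 FPKM. Limma-voom gave log2 fold changes of 0.44 ± 0.14 and 0.41 ± 0.12 with adjusted p-values of 0.0775 and 0.0627, which miss the threshold. After the exon length correction limma-voom gave 0.27 and 0.19, with adjusted p-values of 0.138 and 0.241. For both genes knockdown library 1 was the highest of the 4.

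The DNA methylation enzymes and PHF6 did not pass either test. DNMT3A, a de novo methyltransferase, stood at 13.8 and 15.2 FPKM against 17.3 and 18.2 FPKM, and DNMT1, which maintains methylation at replication, at 25.3 and 25.9 FPKM against 25.2 and 24.7 FPKM. TET2, which oxidizes methylcytosine, was the least abundant of the 46, at 1.59 to 2.01 FPKM with overlapping groups. PHF6, a chromatin reader, measured 12.4 and 13.3 FPKM in the control pair against 15.5 and 14.1 FPKM (ratio 1.15).

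Ratios between paralogs within a library do not depend on the library total, and 7 pairs were compared, with no test. The ratio of EZH2 to EZH1 was 5.11 and 4.74 in the control pair against 6.19 and 5.64. KDM5A to KDM5B was 1.37 and 1.38 against 1.85 and 1.78, and SMARCA4 to SMARCA2 was 3.19 and 2.88 against 3.50 and 3.69. In these 3 pairs both knockdown libraries had the higher ratio, and for ARID1A to ARID1B the difference was in the same direction but small (9.55 and 9.78 against 10.4 and 10.1). EHMT2 to EHMT1 was lower, at 3.78 and 3.63 against 2.87 and 2.94, and so was CHD3 to CHD4, at 12.1 and 11.4 against 8.60 and 8.69, with the limit on CHD4 given above. EP300 to CREBBP overlapped, at 1.63 and 1.78 against 1.83 and 1.65. The members of a pair differ in exon length, which moved with the group difference. In each of the 7 pairs the gene named first is the shorter. KDM5A and KDM5B, where the ratio rose, have 12091 and 25882 bases of exon. EHMT2 and EHMT1, where it fell, have 7289 and 22217. The part of length in these ratios was not tested.

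Exon length was a shared trait of the set. The merged exon length had a median of 12055.5 bases over the 46 genes and 4267 over all tested genes, and 42 of the 46 exceeded 6000 bases, as did 31.9% of all tested genes. Across all tested genes the difference between groups rose with length above 2000 bases of exon. Their median log2 fold change was -0.073 below 2000 bases (2989 genes), -0.15 for 2000 to 4000 bases of exon, 0.03 for 6000 to 8000, 0.14 for 10000 to 15000, 0.18 for 15000 to 20000 and 0.24 above 20000 bases (82 genes). Limma-voom called 0.849% of genes higher for 2000 to 4000 bases and 19.5% above 20000 bases. In their own length range, 28 of the 46 genes lay above the median of tested genes. The medians of the genes of the set were 0.22 (12 genes) for 10000 to 15000 bases, 0.23 (10 genes) for 15000 to 20000 and 0.24 (7 genes) above 20000 bases. In the shorter ranges they were 0.083 (5 genes) for 8000 to 10000 bases and 0.13 (8 genes) for 6000 to 8000. For 4000 to 6000 bases the median was 0.15 (3 genes), and the 1 gene with 2000 to 4000 had -0.25. All tested genes had 0.078 for 8000 to 10000 bases and -0.055 for 4000 to 6000.

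**Figure D3:**
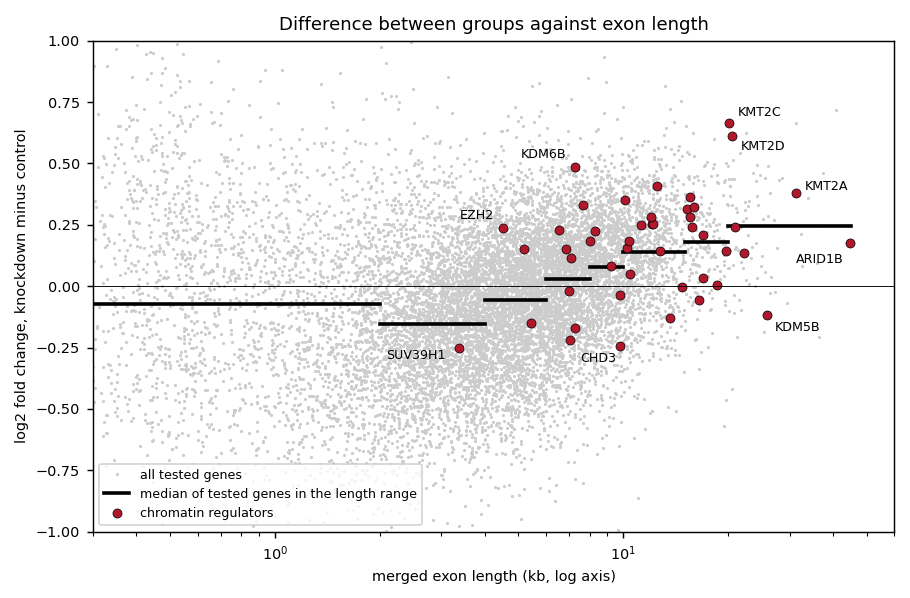
Log2 fold change (y axis, knockdown minus control) against merged exon length in kb (log axis) for all tested genes in grey and the 46 chromatin genes in red, with black lines for the median of all tested genes in each length range; 708 tested genes lie outside the axes. The black lines go from -0.073 in the shortest range down to -0.15 and then climb to 0.24, and KMT2C, KMT2D and KDM6B lie well above the line of their range, while KDM5B, CHD3 and SUV39H1 lie below it.

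The same trend ran between libraries of 1 group. Above 20000 bases of exon, knockdown library 1 exceeded knockdown library 2 by a median of 0.20 on the log2 scale, and control 2 exceeded control 1 by 0.10, while for 2000 to 4000 bases these differences were -0.16 and -0.07. Of the 46 genes, 32 were higher in knockdown library 1 than in knockdown library 2 (42.0% of all tested genes) and 40 were higher in control 2 than in control 1 (44.5% of all tested genes). For 22 of the 46 the libraries ranked control 1, control 2, knockdown 2, knockdown 1 from low to high, the order of 11.2% of all tested genes.

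The fold changes were then recomputed after a smooth trend on exon length had been subtracted from each library. The median of the 46 genes moved from 0.18 to 0.073, with 29 of 46 higher (51.0% of all tested genes), against a median of 0.0070 over all tested genes. Limma-voom then called 2 of the 46 higher (4.03% of all genes) and 1 lower (6.41% of all genes). KDM6B (log2 fold change 0.47, adjusted p = 0.027) and KMT2C (0.51, adjusted p = 0.0423) were still called, KMT2D (0.38, adjusted p = 0.0619) was not, and KDM5B was called lower (-0.46, adjusted p = 0.0257). The difference of KMT2A fell to 0.10 by limma-trend and that of CHD8 to 0.02, while EZH2, with a shorter exon length of 4522 bases, stood at 0.32.

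**Figure D4:**
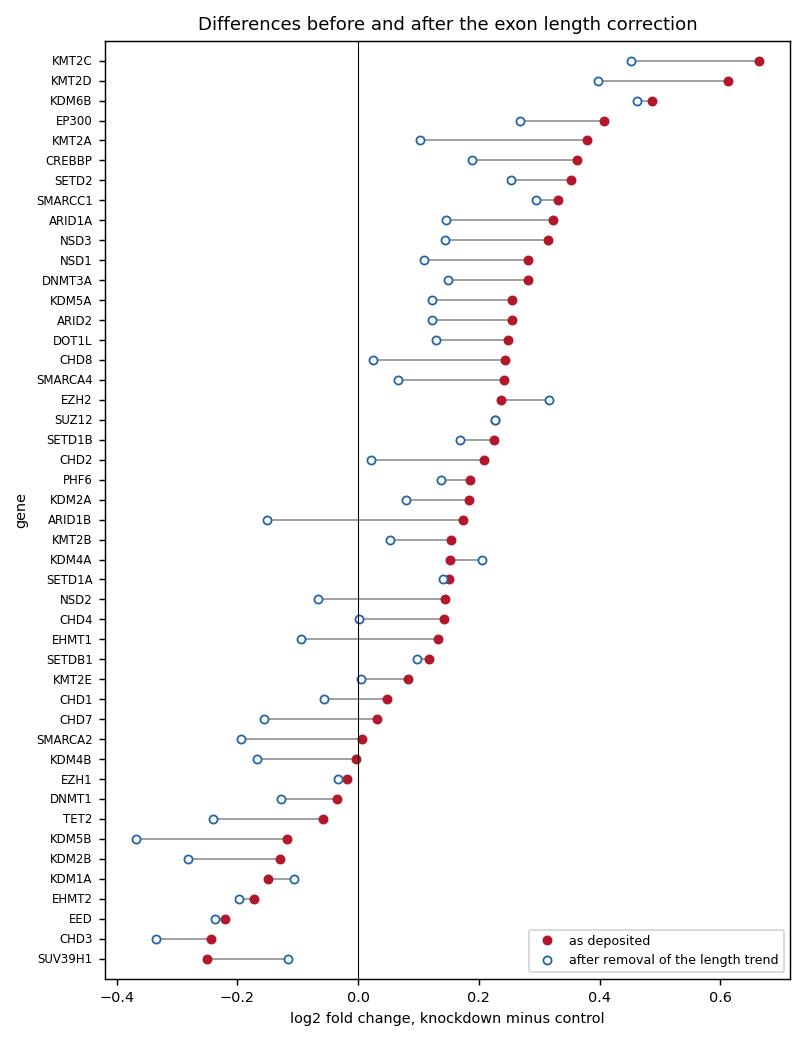
Log2 fold change of each of the 46 genes by limma-trend (x axis) from the deposited values (filled) and after the exon length correction (open), ordered by the former. The shift is small for KDM6B and SUZ12 and large for ARID1B and KDM5B, which have 44677 and 25882 bases of exon.

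Further chromatin genes were taken from 9 lists of partners and relatives, of which 148 were tested, with a median exon length of 6619.5 bases. Their median log2 fold change was 0.02, and 82 of the 148 had a higher mean (45.7% of all tested genes). Limma-trend called 0 of the 148 (0.205% of all tested genes). At an unadjusted p of 0.05 it had 44 of the 148 (23.4% of all tested genes). Limma-voom called 5 higher (1.94% of all tested genes) and 8 lower (5.8% of all tested genes). CDK2AP1, a small NuRD subunit, fell most, from 22.2 and 21.8 FPKM in the control pair to 8.86 and 11.6 FPKM (limma-voom log2 fold change -1.11 ± 0.15, adjusted p = 0.00354). KDM5C, an H3K4 demethylase and paralog of KDM5A and KDM5B, fell from 32.2 and 34.2 FPKM to 19.2 and 22.2 FPKM (limma-voom log2 fold change -0.69 ± 0.13, adjusted p = 0.0169).

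The other 11 calls of limma-voom came from 8 of the 9 lists. JMJD6, a hydroxylase of the JmjC type, fell from 11.3 FPKM in each control to 7.31 and 8.38 FPKM. The SWI/SNF subunits DPF1 and BCL7C fell, from 4.29 and 3.75 to 1.79 and 2.74 FPKM and from 14.1 and 13.4 to 7.38 and 10.6 FPKM, while the subunit SS18 rose from 3.998 and 4.02 to 6.97 and 5.85 FPKM. The COMPASS core subunit DPY30 (adjusted p = 0.0483), the PRC1 ubiquitin ligase RNF2 (adjusted p = 0.0497) and the methyltransferase SMYD3 (adjusted p = 0.0483) fell close to the threshold of limma-voom. BPTF, a subunit of the NURF remodeler, INO80D, a subunit of INO80, NCOA3, a nuclear receptor coactivator, and TET3, a methylcytosine dioxygenase, rose, TET3 from 6.66 and 6.94 to 11.4 and 9.21 FPKM. Of these 13 calls 5 were kept when scaled by summed reads, 6 after quantile normalization, 11 after the exon length correction and 2 with every gene above 0. Without control 1 or without knockdown library 1, 1 was kept, 4 without control 2 and 13 without knockdown library 2.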

How the data were processed

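Per the labels' protocols, TruSeq RNA libraries were made from Trizol-extracted RNA of 2 control and 2 FYB1 knockdown samples. Reads were aligned with HISAT2 2.0.5 to hg38, per the submitters' processing notes; the counting program, annotation and strand setting are unstated in these notes and in the labels. The deposited table names no unit. Its values were identified as FPKM made by the authors, because multiplying by merged exon length (GENCODE 29) gave, in each library, whole multiples of a constant for 100% of genes (tolerance 0.001). Dividing by that constant gave whole reads. All 28274 identifiers matched GENCODE 29.

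Groups were compared with limma-trend (limma 3.58.1, R 4.3.3) on log2(FPKM + 1), group being the only term, for genes averaging 1 FPKM or more. Limma-voom on recovered reads, with the authors' totals, was the second test. Adjusted p-values are Benjamini-Hochberg over all 13172 tested genes, two-sided, threshold 0.05. The length correction subtracted, per library, a lowess (span 0.3) of the deviation from the gene mean on log2 exon length. Both tests and the correction were tested on simulated data.

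Values per library are given for genes called by either test, for the most abundant gene and the largest difference of each role, for 7 paralog pairs, and for some further genes chosen after their values were seen. From the other chromatin lists, genes called by either test are named. The genes and lists were chosen with earlier results of these data known. Of the 154 other chromatin genes, 153 were in the table under the symbol searched.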

Additional observations from a re-analysis of the deposited data

How the results depend on the processing

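Over all tested genes limma-trend called 27, and 781 with a replicate block, 45 after quantile normalization, 76 scaled by summed reads, 111 after the length correction, 0 with every gene above 0 in the test, 181 with genes averaging 5 FPKM or more and 1019 by limma-voom. Leaving out 1 library gave 0 to 406, with 0 without either knockdown library. Of the 46 genes limma-trend called 2 with a replicate block (KMT2C and KMT2D), 3 by limma-voom and 0 to 1 without 1 library (KMT2C without control 2). By limma-voom the count of 3 became 1 scaled by summed reads, 2 after quantile normalization (KDM6B and SMARCA4), 2 with genes averaging 5 FPKM or more (KDM6B and KMT2D), 0 with every gene above 0, and 0 to 18 without 1 library, with 2 under the block, which dropped KDM6B. Over all 13172 genes limma-voom called 461 scaled by summed reads, 513 after quantile normalization and 1072 under the block, against 1019 above. It called 739 of 7743 genes averaging 5 FPKM or more, and 123 of 28274 with every gene above 0. The upper end of the range without 1 library came without knockdown library 2, where more of all tested genes were called as well. The labels do not say that the number in the titles pairs the samples. The deviations of same-numbered libraries had a correlation of -0.21 over 13172 genes, and a crossed block, added after the data were seen, called 1910 genes and 5 of the 46.

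The median log2 fold change of the 46 genes was 0.25 after quantile normalization, 0.30 scaled by summed reads (where that of all tested genes moved from -0.03 to 0.08) and 0.073 after the length correction. Leaving out 1 library gave 0.12 to 0.22. None of the single genes that changed sign was called by limma-trend. After the length correction these were NSD2 (-0.066), EHMT1 (-0.094), CHD1 (-0.057), CHD7 (-0.16), ARID1B (-0.15) and SMARCA2 (-0.19). After quantile normalization they were EZH1 (0.0093), KDM4B (0.18), KDM1A (0.12), CHD7 (-0.018) and DNMT1 (0.16). Scaled by summed reads they were EZH1 (0.10), KDM4B (0.13), KDM5B (0.0066), DNMT1 (0.097) and TET2 (0.030). Leaving out 1 library gave ranges across 0 for KMT2E (-0.080 to 0.25), EZH1 (-0.048 to 0.011), KDM4B (-0.074 to 0.068), CHD1 (-0.18 to 0.28), CHD7 (-0.027 to 0.090), SMARCA2 (-0.052 to 0.064) and TET2 (-0.17 to 0.052). The cause was not tested. The 46 genes had 376 to 8396 reads per library.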
